A study of Drosophila melanogaster with 3 samples.

Results

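The regions described here were the weaker candidates for eyegone on the X chromosome. They were found by ChIP-seq, in which DNA bound by a protein is precipitated with an antibody and sequenced. They were taken from the list called on all 3 replicates together, hereafter the pooled list, by keeping regions of the X that are absent from the optimal list at the same chromosome, start and end on the dm6 build. The optimal list holds the regions that the authors retained after comparing ranks of calls between replicates. The rule left 3124 X regions, of 21184 outside the optimal list and of 23721 candidates in the pooled list, and 18060 autosomal regions on arms 2L, 2R, 3L, 3R and 4 were set beside them. All samples came from whole Drosophila melanogaster embryos of mixed sex, aged 0 to 24 h, of 1 transgenic line that stably expresses eyegone with green fluorescent protein (GFP) at its C-terminus, and the labels name an anti-GFP antibody in the description and eyg in the antibody field. There were 3 biological replicates of that single group, so X was compared with the autosomes inside each list. The files give no read counts and the depth of each library is unknown.

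Eyegone is a Pax-family transcription factor known for its part in the growth of the eye disc and in development of the salivary gland. Male flies carry a single X, and the male-specific lethal complex, guided by the roX RNAs, raises transcription from it. The X is also known for its wealth of short CA and GA repeats, and GA repeats are bound by GAGA factor and CLAMP. The word TATCGATA is the site of DREF, a factor at promoters of genes for cell proliferation and basic cell functions.

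Sequences around the summits of members show the short words by which X and autosomes were later compared. They come from the RefSeq copy of the assembly (build dm6), each a window of about 100 bases around the summit, or of 201 bases where the word lies farther out. The first 2 are among the 3 members of highest signal, which lie just outside the optimal list. The other 10 are among the members of highest signal that hold TATCGATA, GAGAGAGA, CACACACA or AAAAAAAA, and capitals mark that word or its reverse complement (TCTCTCTC, TGTGTGTG, TTTTTTTT).
sol, chrX:21350139-21350239, + strand: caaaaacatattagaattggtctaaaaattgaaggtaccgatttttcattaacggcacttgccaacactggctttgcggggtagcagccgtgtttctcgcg
CG2681, chrX:2708264-2708364, + strand: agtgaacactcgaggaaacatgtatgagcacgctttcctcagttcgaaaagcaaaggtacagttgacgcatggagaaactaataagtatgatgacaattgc
CG4558, chrX:6849595-6849795, + strand: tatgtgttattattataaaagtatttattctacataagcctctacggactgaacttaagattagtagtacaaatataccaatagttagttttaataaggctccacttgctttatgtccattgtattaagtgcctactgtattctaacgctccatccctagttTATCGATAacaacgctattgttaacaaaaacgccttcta
Gapvd1, chrX:11325298-11325398, + strand: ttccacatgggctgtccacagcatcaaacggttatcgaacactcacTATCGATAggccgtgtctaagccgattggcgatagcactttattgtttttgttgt
CG1677, chrX:7277155-7277255, + strand: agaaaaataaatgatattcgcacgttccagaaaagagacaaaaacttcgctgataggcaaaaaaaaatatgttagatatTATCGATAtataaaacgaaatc
NFAT, chrX:13642094-13642294, + strand: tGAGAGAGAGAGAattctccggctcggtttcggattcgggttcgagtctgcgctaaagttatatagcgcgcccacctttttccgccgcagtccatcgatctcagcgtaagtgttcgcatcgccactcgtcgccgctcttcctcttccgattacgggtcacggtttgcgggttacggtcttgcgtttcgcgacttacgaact
CG10962, chrX:8974280-8974480, + strand: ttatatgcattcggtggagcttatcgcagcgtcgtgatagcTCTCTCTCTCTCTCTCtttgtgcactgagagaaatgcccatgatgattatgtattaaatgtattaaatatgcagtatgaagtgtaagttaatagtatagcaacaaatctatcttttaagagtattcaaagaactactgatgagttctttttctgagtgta
Mnt, chrX:3672667-3672767, + strand: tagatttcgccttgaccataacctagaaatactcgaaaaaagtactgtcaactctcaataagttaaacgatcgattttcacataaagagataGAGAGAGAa
Pde9, chrX:12889063-12889263, + strand: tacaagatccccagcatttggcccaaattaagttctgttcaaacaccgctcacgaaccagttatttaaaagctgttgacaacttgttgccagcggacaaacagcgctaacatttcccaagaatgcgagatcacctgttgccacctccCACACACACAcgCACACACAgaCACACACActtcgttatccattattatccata
Drak, chrX:11494949-11495049, + strand: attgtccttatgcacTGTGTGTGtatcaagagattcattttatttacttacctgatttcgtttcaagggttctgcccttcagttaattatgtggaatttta
CG15461, chrX:20480504-20480704, + strand: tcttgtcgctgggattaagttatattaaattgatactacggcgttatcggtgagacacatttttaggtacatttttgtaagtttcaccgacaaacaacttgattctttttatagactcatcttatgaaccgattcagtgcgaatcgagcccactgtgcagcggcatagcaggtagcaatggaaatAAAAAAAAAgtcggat
mdu, chrX:12510850-12511050, + strand: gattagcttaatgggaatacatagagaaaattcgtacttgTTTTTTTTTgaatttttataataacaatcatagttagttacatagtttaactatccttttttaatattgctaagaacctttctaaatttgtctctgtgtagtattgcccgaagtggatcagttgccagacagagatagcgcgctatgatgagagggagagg
CG4558, Gapvd1 and CG1677 carry TATCGATA, and NFAT, CG10962 and Mnt carry the GA repeat. Pde9 and Drak carry the CA repeat, and CG15461 and mdu the run of A. In the window of Pde9 the repeat occurs as 3 separate stretches. At CG10962 it is an unbroken stretch of TC on the plus strand.

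The signal of a region is the authors' own value, of a scale that is not stated, and it ranks regions within a list. The optimal list held every pooled candidate at or above a signal of 108.325, and the highest signal outside it was 108.323. On X the 5 lowest regions inside the optimal list had signals of 108.7 to 109.6 (at CG9981, FucTC, CG3038, His3.3B and dy), and the 20 highest members had signals of 106.4 to 108.3. Replicate signals on the 2 sides of this line overlapped, with 17.0, 43.8 and 38.7 in replicates 1, 2 and 3 at CG9981 and 24.6, 41.6 and 43.5 at CG2681. All members had the full width of 424 bp.

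Each of the 20 highest members had its summit inside a call of all 3 replicates, against 32.0% of all members and 30.1% of all regions outside the optimal list. The 20 were chosen by pooled signal, which comes from the same 3 replicates, so this count is not independent of the choice. Of the 20, 11 lay within 1 kb of a protein-coding transcription start site (TSS), and by annotation 9 summits lay in introns, 8 between genes and 3 in 5′ UTRs. The highest, at chrX:21349977-21350400, lay 91 bp upstream of sol, which encodes a calpain-family protease of optic lobe development, and its signal was 25.8, 40.7 and 62.0 in replicates 1, 2 and 3. In 2 of the replicates the call that held the sol summit also held a summit of the optimal list, 225 bp away. The member at S6KL, a gene for a kinase related to S6 kinase, had 15.8, 56.3 and 37.9, so its value in replicate 2 stood well above that in replicate 1. RhoGAP18B, which encodes a GTPase-activating protein, had 36.3, 33.2 and 34.0, the narrowest spread of the 20. Over the 20, replicate signals ran from 15.8 to 36.3 (median 25.2) in replicate 1, from 19.6 to 56.3 (median 39.9) in replicate 2 and from 27.1 to 62.0 (median 40.9) in replicate 3. The lists are scaled separately, so these ranges describe each list only.

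The genes nearest to the other high members have varied roles. The cAMP phosphodiesterase gene dnc had a member 17509 bp downstream of a start site in an intron, and Pde9, another phosphodiesterase gene, had 1 in an intron 8164 bp downstream. Members lay close to the starts of inaE (127 bp, a diacylglycerol lipase of phototransduction), CG15771 (84 bp), Nep1 (138 bp, a neprilysin peptidase), Rilpl (126 bp), Gapvd1 (37 bp, an endocytic regulator of Rab GTPases), MagR (132 bp, an iron-sulfur protein), LPCAT (111 bp, a lysophospholipid acyltransferase), CG2681 (370 bp), S6KL (440 bp) and RhoGAP18B (366 bp). Those nearest to CG15461, Chsy (a chondroitin synthase), mdu, CG14269, Hr4 (a nuclear receptor of the ecdysone response), Paics (an enzyme of purine synthesis) and Drak (a death-associated protein kinase) lay between 1180 and 13762 bp from a protein-coding start.

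**Figure D1:**
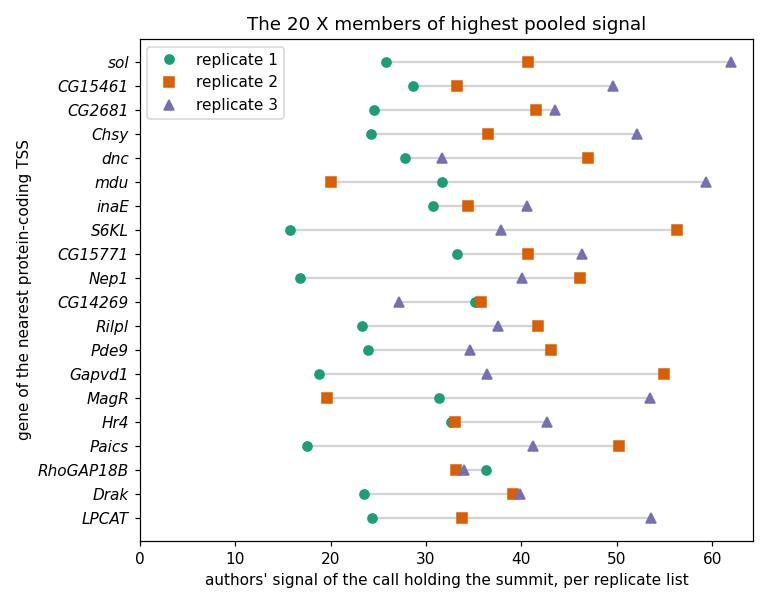
Signal of the call that holds the summit (x axis, authors' signal, scale not stated) in replicates 1, 2 and 3 (markers) for the 20 X members of highest pooled signal (y axis, named by the nearest protein-coding TSS), with a line over the range. Replicate 1 is lowest at sol, S6KL and Gapvd1, and the 3 values lie close together at RhoGAP18B.

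Ranked by mean signal over the replicate lists, the 5 highest members were others. They lay at Ptpmeg2, Evi5, CHES-1-like, Atf3 and OtopLa, 199 to 220 bp from an optimal summit, and the replicate calls that held them also held that optimal summit in all 3 replicates. The member at Atf3, a gene for a stress-responsive transcription factor, had a pooled signal of 37.9, near the bottom of the pooled list, yet its calls had 101.4, 19.7 and 119.4 in replicates 1, 2 and 3. Of all members, 68 (2.18%) had at least 1 such shared call, beside 403 autosomal regions (2.23%). Without shared calls, a selection made after the values were seen, the highest by this mean were at CG15771 (40.1 ± 6.54, SD, n = 3), NFAT (39.4 ± 5.40), sdt (37.6 ± 14.3), Chsy (37.6 ± 14.0) and LPCAT (37.2 ± 15.0). This NFAT member lay in an intron, 7685 bp upstream of a start, and is not the one whose sequence is shown. Because the lists are scaled separately, the mean and its SD also hold differences of scale between lists and are not a measure of replicate spread alone.

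X held fewer regions outside the optimal list per Mb than the autosomes did. The pooled list had 132.7 per Mb on X and 163.7 per Mb on the autosomes, where the 4 large arms ranged from 155.2 on 2R to 174.2 on 2L and arm 4 had 145.4. Put as a share, X made up 14.7% of all regions outside the optimal list, against 17.6% of the length of the arms. The same order held in each replicate list, where a region counts as outside when it shares no base with an optimal region. X had 168.7, 175.3 and 136.2 per Mb in replicates 1, 2 and 3, against 208.0, 205.7 and 166.3 on the autosomes. The ratio of X to autosomes was 0.828 ± 0.0218 (SD, n = 3), below 1 in 3 of 3 replicates (two-sided exact sign-flip permutation test on log2 ratios, p = 0.25, the smallest that 3 replicates allow). X was below each of the 4 large autosome arms in all 4 lists, while arm 4 was lower than X in replicate 1. In embryos of mixed sex, fewer copies of X and less protein per copy cannot be told apart.

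**Figure D2:**
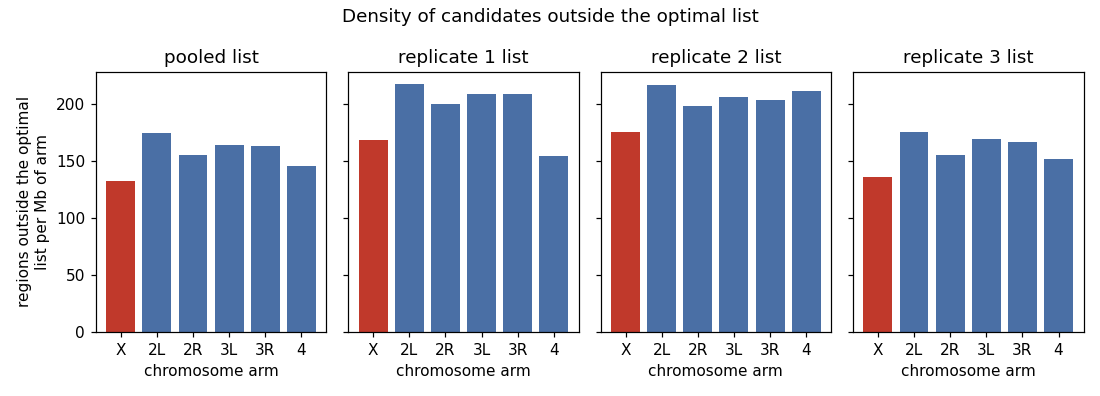
Regions outside the optimal list per Mb (y axis) on each chromosome arm (x axis, X in red, autosomes in blue), in the pooled list and in the list of each replicate. X is below 2L, 2R, 3L and 3R in each panel, with 132.7 per Mb in the pooled list.

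Counted by genes, the order of the arms changed. X had 142.3 pooled regions outside the optimal list per 100 protein-coding genes and the autosomes 153.7, but 2R had 137.6, so X was within the range of the large arms. In windows of 100 kb, a unit chosen after the data were seen, X had a median of 13 members and the autosomes a median of 16. The large arms had medians of 17, 17, 17 and 16 on 2L, 2R, 3L and 3R.

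Among pooled candidates, X was further below the autosomes under a signal of 60 than near or inside the optimal list. In bins of pooled signal chosen after the data were seen, X had 47.3 regions per Mb and the autosomes 59.6 below a signal of 45 (ratio 0.793). Between 45 and 60 the ratio was 0.765, with 45.5 per Mb on X and 59.5 on the autosomes. It was 0.865 between 60 and 80 and 0.954 between 80 and 108.3, the last bin before the optimal list. Inside the optimal list it was 0.941 below a signal of 200 and 0.991 from 200 upwards. X was below the range of the 4 large arms in each bin under 200. Cut into 10 equal parts by signal, no list gave a steady course. In the pooled list X made up 17.1%, 16.6% and 16.7% of the 3 parts of highest signal, 12.9% of the fourth, the lowest share, and 15.98% and 14.1% of the 2 parts of lowest signal. In replicate 1 X made up 15.3%, 14.6% and 13.0% of the 3 parts of highest signal. Its shares of the 4 parts of lowest signal were higher there, at 15.6% to 16.4%. In replicate 2 X made up 17.0% of the part of highest signal and 16.9% of the lowest, with 13.9% in the third, and in replicate 3 the second part had the highest share, 17.9%.

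**Figure D3:**
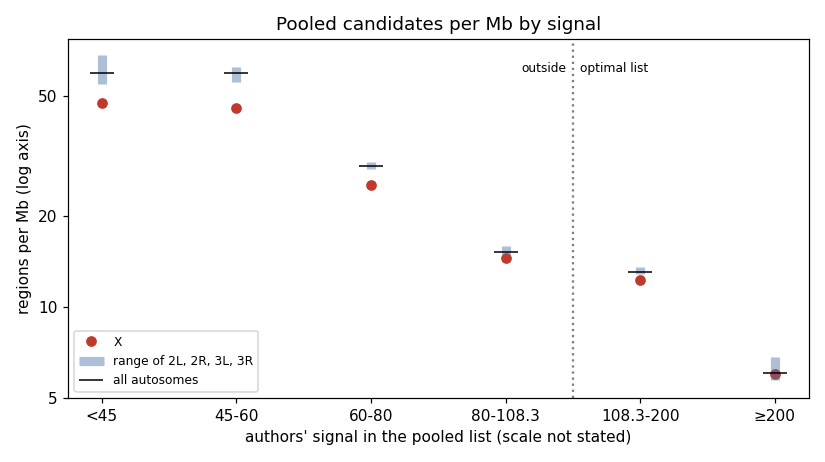
Pooled candidates per Mb (y axis, log scale) in bins of the authors' signal (x axis, scale not stated) on X (red), on all autosomes (black dash) and over the range of 2L, 2R, 3L and 3R (blue bar), with the limit of the optimal list dotted. X lies below the bar in the bins under 200 and at 5.99 per Mb, within it, from 200 upwards.

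With fewer candidates outside the optimal list per Mb, a larger share of the X candidates was in the optimal list. Of 3554 X candidates, 12.1% were optimal, against 10.4% of the autosomal ones (10.2% to 11.1% on the large arms). The background over all candidates was 10.7%. The optimal list itself had 18.3 regions per Mb on X and 19.1 on the autosomes. In the replicate lists, 11.2%, 11.1% and 13.7% of X regions touched an optimal region, against 10.1%, 10.5% and 12.2% of autosomal ones. The difference was 1.14 ± 0.452 percentage points (SD, n = 3), positive in 3 of 3 replicates (exact sign-flip permutation test, two-sided p = 0.25).

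The median signal of members lay within 0.5 of that of autosomal regions in each list. In the pooled list the median signal was 49.3 on X and 49.1 on the autosomes, and the upper quartile was 64.4 on X and 61.6 on the autosomes. In the replicate lists the sign turned, with medians outside the optimal list of 16.2, 17.2 and 18.6 on X and 16.6, 17.6 and 18.7 on the autosomes. A −log10 q of at least 2, as the authors' caller gave it, was reached by 54 members (1.73%), against 1.49% of autosomal regions and a background of 1.52%.

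The replicates held members slightly more often than autosomal regions. The summit lay inside a call of replicate 1, 2 and 3 for 67.5%, 72.3% and 65.7% of members, against 67.4%, 71.0% and 64.2% of autosomal regions. The difference was 0.973 ± 0.757 percentage points (SD, n = 3), positive in 3 of 3 replicates (exact sign-flip permutation test, two-sided p = 0.25). All 3 replicates held 1001 members (32.0%), against 29.7% of autosomal regions and a background of 30.1%, with 28.5% to 30.9% on the large arms. Without the regions whose call also held an optimal summit, these shares were 31.0% on X and 28.9% on the autosomes. No replicate held 53 members (1.70%), against 1.48% of autosomal regions. Members held by all 3 had a median pooled signal of 69.8, those held by none 39.3. Across members held by both lists of a pair, the signals of replicates correlated weakly. Spearman's rank correlations were 0.319 to 0.378 over 1376 to 1488 members and 0.259 to 0.329 over the autosomal regions. The regions came from the pooled list, which was called on these same replicates.

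The share of members near a start site was inside the range of the autosome arms. A summit within 1 kb of any TSS was found for 1383 members (44.3%), against 43.7% of autosomal regions, with 41.7% to 48.6% on the large arms. In the replicate lists it was found for 39.6%, 41.5% and 41.2% on X and 38.6%, 41.4% and 40.1% on the autosomes. The difference turned with the distance, from 2.30 percentage points within 500 bp to -1.04 within 2 kb, and with protein-coding TSSs alone it was 2.59. Members near a TSS had a median signal of 53.3, the others 47.0. The autosomal medians were 52.1 near a TSS and 47.3 elsewhere.

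The lower density of X was seen in each class of annotation in the pooled list. Per Mb of the class, X had 415.3 members in 5′ UTRs against 479.2 on the autosomes, and 3R, the lowest large arm, had 418.2. In coding exons X had 121.5 against 177.1, with 172.1 on the lowest large arm, 2R. Introns held most members, 1511 of 3124 (48.4%), at 137.4 per Mb on X and 164.8 per Mb on the autosomes. Between genes X had 106.3 and the autosomes 130.8, with 107.0 on 2R. The smallest ratios of X to autosomes were 0.686 in coding exons and 0.704 in exons of non-coding RNAs, where X had 50 members. The comparison per class was added after the data were seen. X was below all 4 large arms in 6 of 6 classes in replicate 1, in 5 in replicate 2 (not between genes) and in 4 in replicate 3 (not between genes or in 5′ UTRs).

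**Figure D4:**
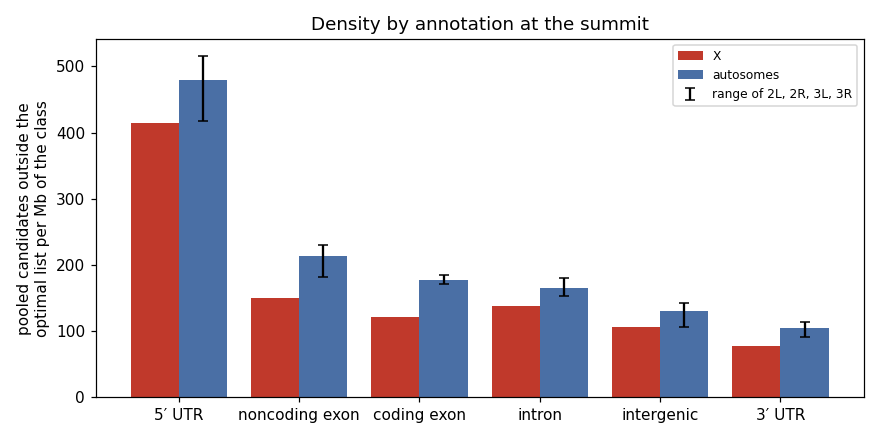
Pooled candidates outside the optimal list per Mb of each annotation class at the summit (y axis) on X (red) and on the autosomes (blue), with a line over the range of 2L, 2R, 3L and 3R. X is below the range in each class, by least between genes (106.3 against 107.0 on 2R) and in 5′ UTRs.

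The run of A, the CA and GA repeats and TATCGATA were more frequent at X summits, and for each of them the X as a whole differed from the autosomes in the same way. A total of 9 words were counted on both strands within 100 bp of the summit, beside all windows of the same 201 bases tiled over the same arms. The run AAAAAAAA was found at 576 members (18.4%), against 9.68% of autosomal regions, and in 15.8% of X tiles against 9.43% of autosomal tiles. CACACACA was found at 7.65% of members against 4.94%, and in 5.77% of X tiles against 3.74% of autosomal tiles. Set over its own tiles, it was enriched 1.33-fold on X and 1.32-fold on the autosomes. GAGAGAGA was found at 2.66% of members against 1.88%, which was 1.73-fold over tiles on X and 1.80-fold on the autosomes. In the replicate lists its difference was 0.841 ± 0.218 percentage points (SD, n = 3), but -1.02 among regions with a −log10 q of at least 2. The run of A was 1.17-fold over tiles on X and 1.03-fold on the autosomes. Members can hold several words, as at Gapvd1, whose summit has both TATCGATA and CACACACA within 100 bp, and overlapping matches of a word count once.

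TATCGATA stood further above its tiles. It was found at 83 members (2.66%), against 1.48% of autosomal regions and 1.04% to 1.73% on the large arms. Inside the optimal list the order was the other way, with 3.95% of regions on X and 4.27% on the autosomes. The tiles had it in 0.706% of windows on X and 0.534% on the autosomes, so members were 3.76-fold and autosomal regions 2.77-fold over tiles. On the large arms this fold ran from 1.99 on 3L to 3.32 on 3R. These folds are of the pooled list alone. None was computed for the replicate lists, whose shares below are not set over tiles. Of the 83 members, 77 lay within 1 kb of a TSS, and 5.57% of members near a TSS had the word, against 2.98% of autosomal regions near a TSS. Members with the word had a median signal of 65.8, those without it 49.0. The autosomal medians were 58.0 with the word and 49.0 without it. The replicate lists had it at 1.79%, 1.89% and 2.31% of X regions outside the optimal list and at 1.10%, 1.15% and 1.32% of autosomal ones, a difference of 0.801 ± 0.160 percentage points (SD, n = 3), positive in 3 of 3 replicates (exact sign-flip permutation test, two-sided p = 0.25). The member at CG4558, 75 bp upstream of its start, had a signal of 44.1, 27.3 and 31.7 in replicates 1, 2 and 3, and that at dod, a peptidyl-prolyl isomerase gene, had 37.2, 28.4 and 38.4.

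**Figure D5:**
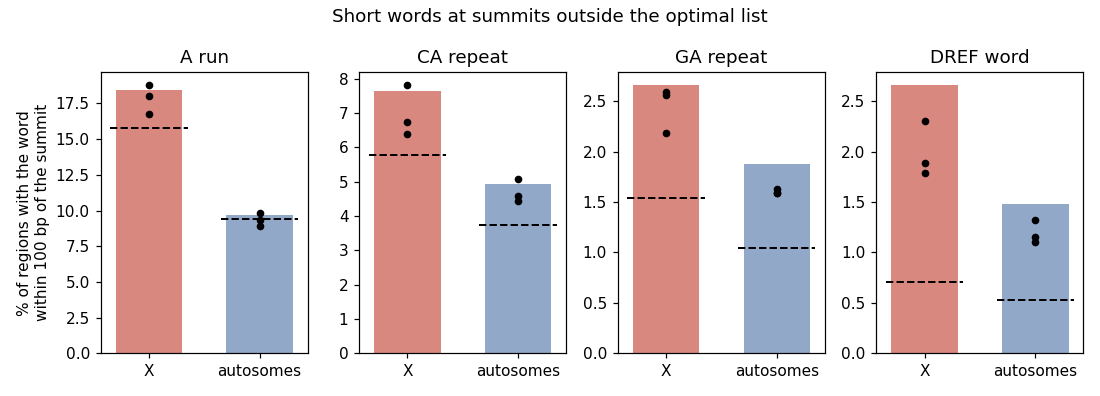
Share of regions outside the optimal list with a word within 100 bp of the summit (y axis, %) on X (red) and the autosomes (blue), for the run of A, the CA and GA repeats and the DREF word. Bars are the pooled list, points the 3 replicate lists and dashed lines the share of all windows of that size on the same arms. The dashed line is higher on X in each panel, and for the DREF word the bar of 2.66% on X stands 3.76-fold above its line.

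Of the other 5 words, 3 were less frequent at members of the pooled list. TAATTA, the core bound by many homeodomains, was found at 9.96% of members against 10.7% of autosomal regions. The word was in 11.7% of X tiles and 12.7% of autosomal tiles. Set over its own tiles, it was 0.853-fold on X and 0.849-fold on the autosomes. In the replicate lists its difference was -1.46 ± 0.558 percentage points (SD, n = 3), negative in 3 of 3 replicates (exact sign-flip permutation test, two-sided p = 0.25), and at a −log10 q of at least 2 it was -5.11, while pooled candidates above the median signal had -0.0867. CAGGTAG, the site of the early activator Zelda, was found at 0.960% against 1.23%, and GGTCACACT, the core promoter word bound by M1BP, at 0.928% against 0.853%, which was 3.74-fold over tiles on X and 4.46-fold on the autosomes. CAGCTGTT was found at 2.18% against 2.28%, but in the replicate lists its difference was 0.164 ± 0.200 percentage points (SD, n = 3), positive in 3 of 3 replicates. TATATATA was found at 1.92% against 1.81%. TATATATA was rarer at summits than in tiles on both, with 4.25% of X tiles and 2.69% of autosomal tiles. The median GC content of the 201 bases was 42.3% on X and 43.3% on the autosomes.

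Of 2196 protein-coding genes on X, 1086 had a member within 1 kb of a TSS (49.5%), against 50.4% of autosomal genes, and counts of the lists below are to be read against that. Among 9 entries of dosage compensation and sex determination, 4 had such a member. The roX1 RNA had a member of signal 72.1 in its exon, 201 bp from a start, with 19.1, 25.7 and 23.8 in replicates 1, 2 and 3. The roX2 RNA had none near its start and 1 inside the gene. Sxl, the switch gene of sex determination, had a member of signal 85.2, 980 bp from a start, with 39.8, 34.9 and 73.8 in replicates 1, 2 and 3, and the call in each replicate also held the optimal summit 205 bp away. The acetyltransferase gene mof had a member of signal 59.4 and the splicing gene snf a member of 71.2. None of the 4 genes of the achaete-scute complex had one.

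Signalling genes had a member near a start for 12 of 17 entries. The highest lay at Tak1 (96.3) and hep (91.2), kinases upstream of Jun kinase, at arm (82.7), the beta-catenin of Wnt signalling, and at the receptor gene N (78.1). The member at N had 32.8, 47.8 and 38.1 in replicates 1, 2 and 3, and in 2 of these the call also held an optimal summit 201 bp away. The cytokine genes upd1, upd2 and upd3 had none near a start, while their receptor gene dome (76.3) and the kinase gene hop (46.7) did. The dome summit lay inside a call of 2 replicates, and the hop summit inside a call of replicate 1 alone (18.8). Of 10 eye and disc genes 5 had one, among them sd (91.0), a partner of Yorkie and Vestigial, and oc (62.4), a homeobox gene of the head.

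Of 13 genes of the nervous system 10 had a member near a start, led by the phospholipase gene norpA (85.8) and dnc (83.7), where a member other than the intronic one lay 217 bp from a start with 20.9, 33.3 and 32.3 in replicates 1, 2 and 3. Of 12 pigment and classic marker genes 9 had one, led by car (96.1), a vesicle-sorting gene, and sn (79.9), the fly fascin. The white gene, w, had none near its start and 1 inside the gene. Among 5 yolk and chorion genes only Yp3 had one, of signal 38.9. Of 14 ribosomal protein genes 10 had one, and all 14 had an optimal region near a start, against 286 (13.0%) of all protein-coding genes on X. The highest were at RpS28b (99.2), RpL36 (97.2), RpS5a (87.8) and RpL35 (87.3). For RpL36 and RpS5a, and for RpL7A (78.2), the replicate calls also held the optimal summit in all 3 replicates. The ribosomal members lay 199 to 1017 bp from an optimal summit, while 6.18% of all members lay within 1 kb of one.

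Members were not spread evenly along X. The 1 Mb windows held 85 to 193 members up to 20 Mb, with the highest count between 13 and 14 Mb. The 3 whole windows beyond 20 Mb, towards the centromere, held 55, 74 and 29, where 81, 55 and 46 protein-coding genes start. Of 235 windows of 100 kb, 17 held none. On 2L, 2R, 3L and 3R, 5 of 235, 39 of 252, 38 of 281 and 36 of 320 windows held no region outside the optimal list. The fullest windows of these arms held 50, 41, 55 and 55. On X the 2 fullest held 35 each. In 1 of these the highest member lay at CG15211 (84.2, chrX:10775716-10776139). The next held 33, with CG32639 (83.1), and several windows held 31, among them those of Moe (96.2), the fly moesin, and His3.3B (101.2), a gene of histone H3.3.

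The median distance from a member to the next candidate was 1321 bp on X and 1192 bp on the autosomes, and on the large arms it was 1156 to 1215 bp. To the nearest optimal summit it was 11921 bp on X and 11868 bp on the autosomes. Within 10 kb of an optimal summit lay 45.4% of members and 45.5% of autosomal regions.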

How the data were processed

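ChIP-seq was measured in 3 biological replicates of 1 group. Per the labels' protocols, chromatin was sonicated to 200 to 800 bp. The deposited lists give, for each region, a signal whose scale is not stated and a −log10 q-value, both as the authors' caller wrote them. The score column held 0 and the p-value column -1 throughout, and neither was used. Per the listings deposited with the samples, each replicate list came from that replicate and a control, the pooled list from all 3 replicates and the control, and the optimal list from those 4. For the aligner and the caller the name was not given in the sources used here. Lists of replicates 1 and 2 held 30000 regions each and that of replicate 3 held 24609. Replicate numbers come from the labels.

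Main values use dm6, Python 3.11.15, numpy 2.4.6 and pandas 2.3.3. Gene models were Ensembl release 115, without transposable elements, and sequence was RefSeq's. All regions fell within the 6 arms. Coordinates are 1-based. Differences between X and autosomes were formed in each replicate list and tested by a two-sided exact sign-flip permutation test over 3 replicates (smallest p 0.25). The pooled list gave 1 value, untested. Regions of a list are not replicates. Functions were tested on simulated data. Members, gene lists and words were chosen with earlier results of these data known. The windows shown for the run of A, the windows of 201 bases, the signal bins, densities by class and windows, and the check of shared calls were added after values were seen. Named genes were the 20 members of highest signal, the 5 lowest optimal X regions, the highest members with a word, of the fullest windows and by mean replicate signal, and up to 4 per gene list in order of signal with roX1, roX2, Sxl, w and N. Some genes were named beyond this rule after their values were seen (dome, hop, upd1, upd2, upd3 and sdt). Of the windows of bases selected for display, those of Gapvd1 at the CA repeat and CG15771, mostly UTR, were left out. Alternatives covered overlap, thresholds, build, distance, window, arm 4 and each replicate. Some genes selected by the rule are left unreported.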

Additional observations from a re-analysis of the deposited data

How the results depend on the processing

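Of 172 recomputed values over 29 results, 114 moved by less than the spread between replicates, 49 moved by more and 9 changed sign. The 114 include all values that leave out a replicate. Those could neither move beyond the spread nor change sign, so the 114 are not a measure of stability. Values are X over autosomes for density, percent for the share on X, and X minus autosomes otherwise; the cause of each shift was not tested. Restricting to a −log10 q of at least 2 gave a share on X of 16.7% in the pooled list and 14.1% in the replicate lists. The density ratio was 0.941 and 0.780. The values that follow are of the replicate lists only. The share in the optimal list was 2.75 points higher on X and the TSS share 6.19 points higher. The median signal was 0.438 higher on X (opposite in sign to -0.315). The words had -1.02 points for GAGAGAGA, 0.897 for CACACACA, 4.15 for TATCGATA and -0.194 for TATATATA. They had -1.61 for CAGCTGTT, -5.11 for TAATTA and 0.927 for CAGGTAG. Of these, GAGAGAGA, TATATATA, CAGCTGTT and CAGGTAG changed sign. How many X regions of each replicate list reached this q is not given here, so these values may rest on few regions. Counting per protein-coding gene gave a density ratio of 0.925 in the pooled list and 0.945 in the replicate lists. Mean signal in place of the median gave 0.829 pooled and -0.0684 over replicates. Among regions above the median signal the TSS difference was 2.56 points, that of AAAAAAAA 9.81, of TATCGATA 1.95 and of CAGCTGTT 0.0279, with a changed sign. The TSS difference was 2.30 and 2.14 points within 500 bp (pooled, replicates), -1.04 and -0.350 within 2 kb, with a changed sign, and 2.59 and 2.64 with protein-coding TSSs. A window of 50 bp gave, pooled and over replicates, 0.466 and 0.524 for GAGAGAGA, 1.37 and 1.12 for CACACACA, 4.55 and 4.72 for AAAAAAAA, 0.800 and 0.622 for TATCGATA, and -0.00194 for TATATATA in the pooled list, with a changed sign. The whole region gave 1.49 and 1.57, 5.60 and 4.82, 13.6 and 13.1, and 1.53 and 1.18 for the first 4 words.

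Leaving out each replicate in turn changed no sign, and could not have, because the 3 replicates had the same sign for each measure. The mean of the remaining replicates also could not move beyond the spread, so these values do not test stability. The share on X ran from 14.8% to 15.1%, the density ratio from 0.815 to 0.836, the share in the optimal list from 0.911 to 1.36 points, the median signal from -0.408 to -0.264, the recall from 0.737 to 1.41 points, the TSS share from 0.509 to 1.01 points and TATCGATA from 0.710 to 0.859 points. Leaving out arm 4 (run for all but the share on X), asking for no base shared with an optimal region (run for the recall and, in the pooled list, for all but the share in the optimal list) and the dm3 lists (run for the share on X, the share in the optimal list and the median signal) moved none of the results they were run on beyond the spread. No pairing of samples across groups was possible because the 3 libraries form a single group of samples. X and autosomes were paired inside each list, as a difference or ratio within each replicate. Depth is unknown, so regions near the lower end of a list cannot be weighed by read number.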
